A study of Homo sapiens with 8 samples.

Results

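The MYC and MAX network was followed through mRNA and ribosome footprints of T3M4 cells, an established human pancreatic cancer line, with and without a guide RNA against METTL13. METTL13 is a methyltransferase of the translation elongation factor eEF1A, and the design asks what its targeting does to mRNA levels and to translation. The members were taken by gene symbol and were MYC, MAX, MXD1, MXD3, MXD4, MXI1, MNT, MGA and MLX. All 9 were among the 14668 genes of the count table, and all 9 passed the expression filter in mRNA, in footprints and for footprints per mRNA. There were 4 groups of 2 libraries each: RNA-seq of sgControl cells (a control guide), RNA-seq of sgMETTL13 cells, ribosome profiling of sgControl cells and ribosome profiling of sgMETTL13 cells. Every group was T3M4, starved of serum for 18 h and restimulated with 10% FBS for 2 h. The sources used here do not say whether the guide-bearing cells were a pool or a clone, or whether the replicates came from separate cultures. The p-values therefore reflect no more than how far these libraries spread. Footprints are the mRNA stretches covered by ribosomes, here pulled down through a puromycin analog that binds active ribosomes.

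MYC is a basic helix-loop-helix leucine zipper transcription factor that binds DNA only as a dimer with MAX, at E-box sites with the core CACGTG. It drives genes of growth, nucleotide synthesis and ribosome production, and its short-lived mRNA and protein are induced when starved cells receive serum. The MXD proteins, MXI1, MNT and MGA also pair with MAX and act at E-boxes mostly as repressors, while MLX is the MAX-like partner of the glucose-sensing factors MLXIP (MondoA) and MLXIPL (ChREBP) and can also pair with MXD1, MXD4 and MNT.

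RefSeq promoters (GRCh38.p14) were examined for 8 of the 9 members, which have 13 promoters between them. MYC was left out of this step, so whether its own promoter carries the site was not tested. The E-box CACGTG was present in the 250 bases before the start in 3 of the 13, those of MLX, MNT and MXD4. The same letters, which read alike on both strands, occurred in 7.91% of the 17352 promoters of genes in the count table. The 3 windows are shown because they carry the site that the network itself binds. MLX and MNT are also the members whose footprints passed the test, whereas MXD4 did not pass. A link between the site and the footprint differences was not tested. MLX is read from the plus strand at chr17:42566850-42567099, MNT from the minus strand at chr17:2401061-2401310 and MXD4 from the minus strand at chr4:2262110-2262359. Capitals mark CACGTG, and the last base of each line is the base before the start.
MLX: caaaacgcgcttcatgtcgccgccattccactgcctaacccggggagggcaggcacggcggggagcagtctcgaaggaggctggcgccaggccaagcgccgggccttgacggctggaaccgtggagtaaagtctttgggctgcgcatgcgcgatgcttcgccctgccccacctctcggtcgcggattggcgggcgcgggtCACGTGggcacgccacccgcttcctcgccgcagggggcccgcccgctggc
MNT: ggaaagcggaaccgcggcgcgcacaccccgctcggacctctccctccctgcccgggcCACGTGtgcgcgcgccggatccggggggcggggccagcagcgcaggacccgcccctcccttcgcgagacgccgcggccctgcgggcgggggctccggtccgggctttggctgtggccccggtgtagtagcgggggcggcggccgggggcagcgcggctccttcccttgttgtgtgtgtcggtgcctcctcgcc
MXD4: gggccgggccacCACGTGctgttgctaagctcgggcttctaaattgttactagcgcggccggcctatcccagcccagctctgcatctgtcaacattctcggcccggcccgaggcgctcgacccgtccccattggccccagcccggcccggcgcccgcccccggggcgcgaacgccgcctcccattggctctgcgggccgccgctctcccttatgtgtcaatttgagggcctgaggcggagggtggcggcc
The first base of the site lay 50 bases before the start in MLX, 193 in MNT and 238 in MXD4. GC content was 71.2% in MLX, 78% in MNT and 70.4% in MXD4, against a median of 63.6% over promoters of genes in the table. The looser E-box CANNTG, which includes CACGTG, was present in 55.9% of those promoters, 3 times in MXD1, 2 times in MXD3 and in neither MAX window. Both MAX windows (minus strand, chr14:65102284-65102533 and chr14:65101685-65101934) lay inside the span of the gene, which ends at 65102695. The bases before that outer end were not examined, so whether they carry an E-box was not tested. A match is a description of the letters and says nothing of binding.

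RNA libraries held 20860953 to 48353722 counts and footprint libraries 6063885 to 9837253 counts. Levels are given in CPM (each count relative to its library total, scaled by TMM factors). METTL13 read 65.2 and 57.8 footprint CPM in sgControl and 20.1 and 26.2 in sgMETTL13, and 89.7 and 71.4 against 25.2 and 35.1 CPM in mRNA. Its footprints fell to 0.376 of control (log2 fold change -1.41, SE 0.164, edgeR adjusted p = 6.38e-07). The METTL13 mRNA ratio of 0.374 did not pass (edgeR adjusted p = 1). Its mRNA groups did not overlap, as in 12% of all genes tested in mRNA. All 7 of 7 epithelial markers were above 1 CPM in each group, summing to 2872 to 4188 CPM in mRNA and 1642 to 1744 CPM in footprints. Of the leukocyte markers, 3 of 5 were in the table and summed to 20.6 to 49.3 CPM in mRNA, nearly all of it CD68 (20.4 to 49.3 CPM), while PTPRC reached at most 0.0422 CPM. In footprints they summed to 1.2 to 1.45 CPM in sgControl and 1.73 to 1.87 CPM in sgMETTL13, and the part of such markers in the results was not tested. Of the fibroblast markers, 4 of 5 were in the table, with COL1A1 at 18.7 to 31.9 CPM in mRNA and 19.9 to 24.1 CPM in footprints, LUM at 0.848 to 4.82 CPM in mRNA, and COL1A2 at most 0.193 CPM in mRNA and 0 in footprints. Endothelial markers summed to at most 1.59 CPM in any library. The sgMETTL13 RNA replicates stood furthest apart, with an SD of the log2 difference between replicates of 0.901 over 12468 genes against 0.417 in sgControl RNA. That SD was 0.366 in sgControl footprints and 0.309 in sgMETTL13 footprints.

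**Figure D1:**
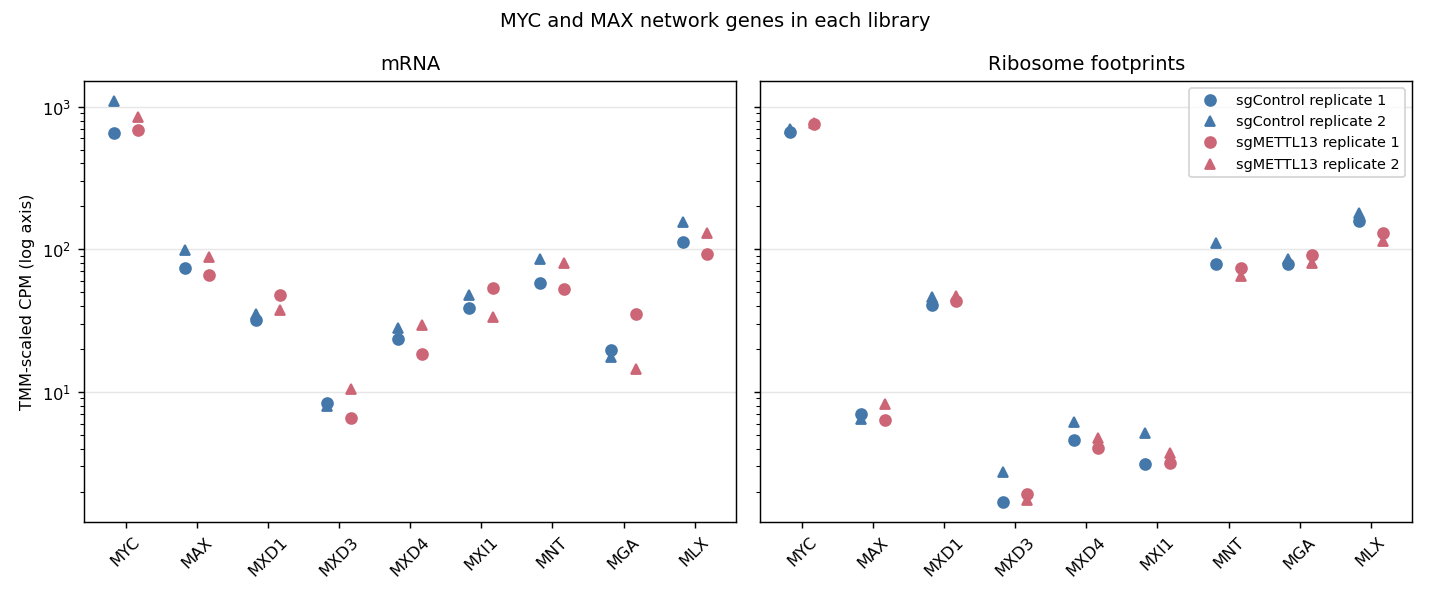
TMM-scaled CPM (log axis) of the 9 network genes in each library, mRNA on the left and footprints on the right; circles are replicate 1, triangles replicate 2, blue sgControl and red sgMETTL13. MYC footprints read 666 to 767 CPM in the 4 libraries, whereas MXD3, MXD4, MXI1 and MAX read at most 8.23 CPM.

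In ribosome footprints, MLX and MNT fell in sgMETTL13 cells and the other 7 members did not pass the test. MLX passed in 10 of 13 alternative settings and MNT in 4 of 13. These settings include a crossed pairing of replicates that was chosen after seeing the data, in which both passed. Of the 9 members, 0 rose and 2 fell by edgeR's quasi-likelihood test, against 8.94% of 10714 genes that rose and 12% that fell, 21% in all. The share of members called was therefore near that of all genes. The member median was a log2 fold change of -0.21, against 0.01 over all genes tested. In bulk lysates, fewer cells carrying an mRNA and less of it per cell cannot be told apart.

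MLX lies on chromosome 17, from 42567100 to 42573203. MLX footprints read 158 and 180 CPM in control cells against 131 and 114 CPM with sgMETTL13. Both sgMETTL13 libraries lay below both controls, and groups did not overlap in 64.1% of all genes tested in footprints. The replicates of each group differed 1.14-fold. The ratio was 0.725 (log2 fold change -0.46, SE 0.134, n = 2 per group, edgeR adjusted p = 0.0135), with a 95% interval of 0.6 to 0.877. MLX lost its call without sgControl replicate 2 (-0.37, edgeR adjusted p = 0.115), without sgMETTL13 replicate 2 (-0.37, adjusted p = 0.268) and in the model of all 8 libraries (-0.46, adjusted p = 0.655). The model of all 8 libraries called 0 of the 10714 genes tested in footprints. RefSeq lists a pseudogene of MLX, so short footprints could match a second place, and this was not tested.

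MNT, on chromosome 17 from 2384073 to 2401060, encodes a widely expressed MAX partner that represses through SIN3. Its footprints read 78.9 and 110 CPM in control cells against 74.2 and 65.2 CPM with sgMETTL13. The groups did not overlap, as in 64.1% of all genes tested in footprints, but sgControl replicate 1 lay only just above sgMETTL13 replicate 1. The ratio was 0.739 (log2 fold change -0.44, SE 0.153, edgeR adjusted p = 0.0409), and the interval ran from 0.595 to 0.918. That call rests on sgControl replicate 2, without which the difference was -0.18 (edgeR adjusted p = 0.576), and it also ended without sgMETTL13 replicate 1 (-0.54, adjusted p = 0.0589) or replicate 2 (-0.34, adjusted p = 0.338). With scaling factors computed before the expression filter it did not pass (adjusted p = 0.0509). That order was the one used first, and filtering before scaling was adopted with this value known.

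**Figure D2:**
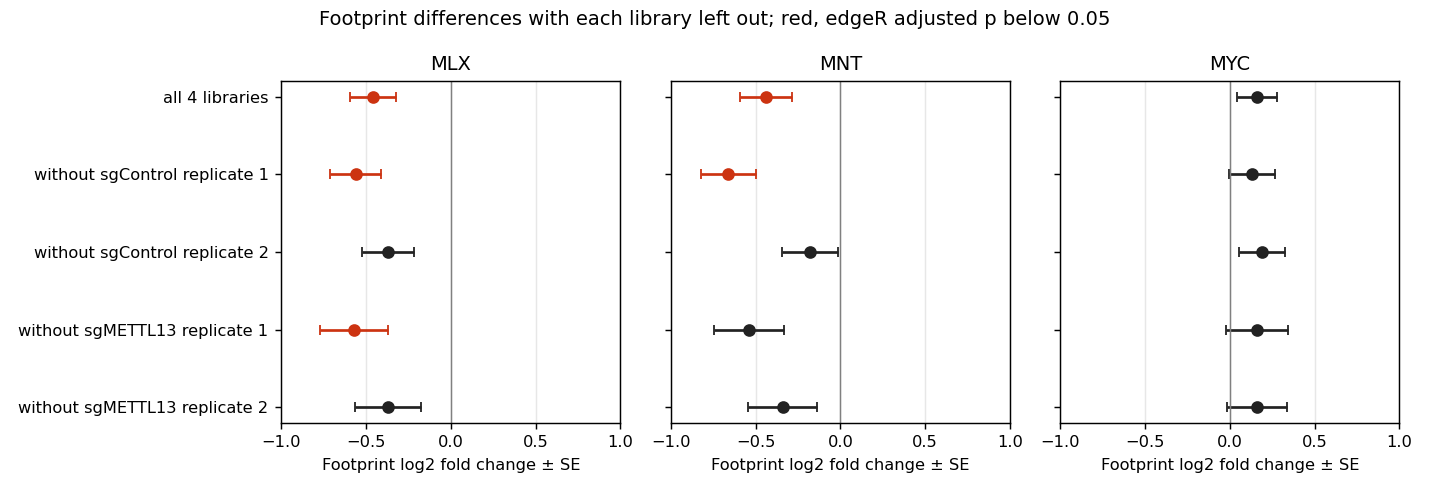
Footprint log2 fold change ± SE of MLX, MNT and MYC with all 4 footprint libraries and with each left out; red points passed the edgeR test. MLX stayed between -0.57 and -0.37 and MNT between -0.66 and -0.18, each losing its call without either replicate 2 and MNT also without sgMETTL13 replicate 1, and MYC stayed between 0.13 and 0.19 without passing.

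For MYC itself, on chromosome 8 from 127735434 to 127742951, replicate footprint levels differed least among the 9 members. Counts of 5506 and 4083 in sgControl and 7499 and 6989 in sgMETTL13 gave the 666 to 767 CPM plotted by library. The groups did not overlap, as in 64.1% of all genes tested in footprints, and the replicates differed 1.05-fold in sgControl and 1.01-fold in sgMETTL13. The ratio of 1.12 had a 95% interval of 0.95 to 1.32 (edgeR adjusted p = 0.332), which includes no change. MYC took 0.0673% of all footprint counts in each sgControl library, and 0.0762% and 0.0784% in sgMETTL13.

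MYC mRNA varied more than its footprints. It read 652 and 1096 CPM in control cells against 692 and 852 CPM with sgMETTL13, so both sgMETTL13 values lay between the controls. The ratio was 0.883, with an interval of 0.51 to 1.53 (edgeR adjusted p = 1). Left-out RNA libraries moved the log2 fold change from -0.48 to 0.24, and the sign turned without sgControl replicate 2 or sgMETTL13 replicate 1.

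MAX, the obligate partner, on chromosome 14 from 65006101 to 65102695, had few footprints for its mRNA. Its footprints numbered 58 and 38 counts in sgControl and 62 and 75 in sgMETTL13, or 7.02, 6.5, 6.3 and 8.23 CPM. The lowest count, 38, has an exact Poisson 95% interval of 26.9 to 52.2, which covers counting error only. The groups overlapped, and the ratio was 1.07 with an interval of 0.745 to 1.53 (edgeR adjusted p = 0.829). MAX mRNA read 74.2 and 98.3 CPM in control cells against 66.1 and 87.9 CPM with sgMETTL13, again with overlap. RefSeq lists an antisense gene, MAX-AS1, and the strand setting of the counting is not given in the sources used here.

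Among the MXD repressors, several of which take the place of MYC on MAX as cells leave the cycle, MXD1 (chromosome 2, 69915109 to 69942945) had the most footprints. Its footprints read 40.9 and 46.3 CPM in control cells against 43.1 and 47.4 CPM with sgMETTL13, so the groups overlapped. The ratio was 1.04, with an interval of 0.837 to 1.29 (edgeR adjusted p = 0.831). MXD1 mRNA read 32 and 34.9 CPM in control cells against 48 and 37.4 CPM with sgMETTL13. It was the only member whose mRNA groups did not overlap, as in 12% of all genes tested in mRNA, and its ratio of 1.28 did not pass (interval 0.692 to 2.36, edgeR adjusted p = 1).

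MXD3, MXD4 and MXI1 carried so few footprints that only large differences were detectable. MXD3 lies on chromosome 5 (177305499 to 177312752), MXD4 on chromosome 4 (2247432 to 2262109) and MXI1 on chromosome 10 (110207605 to 110287365). MXD3, which is linked to the S phase of dividing cells, had 14 and 16 footprints in sgControl and 19 and 16 in sgMETTL13. MXD4 had 38 and 36 against 40 and 43, and MXI1 had 26 and 30 against 31 and 34. Scaled to library size the groups of MXD3 overlapped, at 1.69 and 2.74 CPM against 1.93 and 1.76 CPM. MXD4 read 4.6 and 6.16 CPM against 4.06 and 4.72 CPM, and MXI1 3.15 and 5.13 CPM against 3.15 and 3.73 CPM. In each of the 3 genes sgControl replicate 2 was the highest library. The intervals of the footprint ratio were 0.499 to 1.49 for MXD3, 0.552 to 1.25 for MXD4 and 0.544 to 1.34 for MXI1, and none passed (edgeR adjusted p = 0.741, 0.54 and 0.658).

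MGA (chromosome 15, 41621224 to 41769940), the large scaffold that joins MAX to a Polycomb repressor complex, had steady footprints and unsteady mRNA. Its footprints read 78.8 and 85.2 CPM in control cells against 90.6 and 80.8 CPM with sgMETTL13, a ratio of 1.05 with an interval of 0.86 to 1.28 (edgeR adjusted p = 0.777). MGA mRNA read 19.7 and 17.5 CPM in sgControl but 35.5 and 14.4 CPM in sgMETTL13, one library above and the other below both controls. Without sgMETTL13 replicate 2 the mRNA log2 fold change was 0.93 and passed (edgeR adjusted p = 0.00678), in a fit that called 19.9% of all genes, and without sgMETTL13 replicate 1 it was -0.3 (adjusted p = 0.902). With all 4 libraries it was 0.42 with SE 0.497 (adjusted p = 1).

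No member passed in mRNA. edgeR called 0 of 12468 mRNAs, 0%, with 100 at an unadjusted p below 0.05 and none of the 9 members among them, and DESeq2 and limma voom also called 0. MLX mRNA read 113 and 155 CPM in control cells against 92.9 and 131 CPM with sgMETTL13, and MNT mRNA 57.7 and 85.8 against 52.7 and 80.5 CPM. In both genes replicate 2 lay above replicate 1 within each group, so the groups overlapped. The ratios were 0.835 for MLX (interval 0.478 to 1.46) and 0.929 for MNT (0.502 to 1.72). MXD3 mRNA read 8.34 and 7.99 CPM in control cells against 6.57 and 10.4 CPM with sgMETTL13, MXD4 mRNA 23.5 and 28 against 18.3 and 29.3 CPM, and MXI1 mRNA 38.6 and 47.9 against 53.5 and 33.7 CPM. In all 3 the sgMETTL13 libraries enclosed the controls. The point estimates of the 9 members ran from -0.26 in MLX to 0.42 in MGA on the log2 scale, and their intervals were wide.

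**Figure D3:**
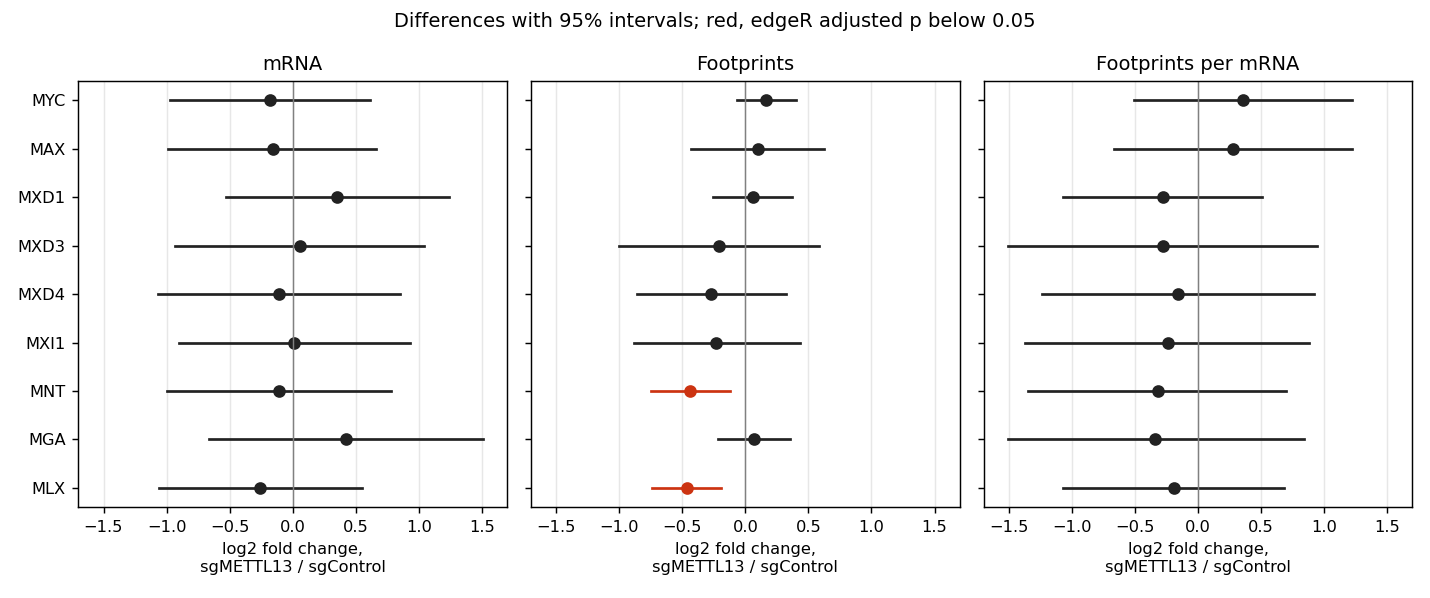
Log2 fold change of each member in sgMETTL13 against sgControl with its 95% interval, for mRNA, footprints and footprints per mRNA; red marks an edgeR adjusted p below 0.05. MLX and MNT passed in footprints, and the intervals of mRNA and of footprints per mRNA all included 0.

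Footprints per mRNA differed widely between the members in control cells. The ratio of footprint CPM to mRNA CPM had a median of 0.859 over 10446 genes in sgControl. MAX stood at 0.0783 and MXI1 at 0.0957, in the lowest part of all genes (percentiles 4.39 and 5.67). MXD4 stood at 0.209 and MXD3 at 0.271 (percentiles 13.8 and 18.2), MYC at 0.78 (46.6), and MLX, MXD1 and MNT at 1.26, 1.3 and 1.32 (63.1 to 64.7). MGA was highest at 4.41 (percentile 92.3).

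Every possible ratio between 1 footprint and 1 RNA library of sgControl was taken to show the spread. MAX then ranged from 0.0661 to 0.0945 and MXI1 from 0.0657 to 0.133, so their order is not resolved. MXD4 (0.164 to 0.262) and MXD3 (0.203 to 0.342) overlapped each other. MYC ranged from 0.608 to 1.07 and overlapped MNT (0.919 to 1.92) and MLX (1.02 to 1.59). MGA (4 to 4.87) stood clear of the other 8 members. The ratio is per gene and still depends on how much of each transcript is coding, for which no lengths were used here, and its part in the order was not tested.

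**Figure D4:**
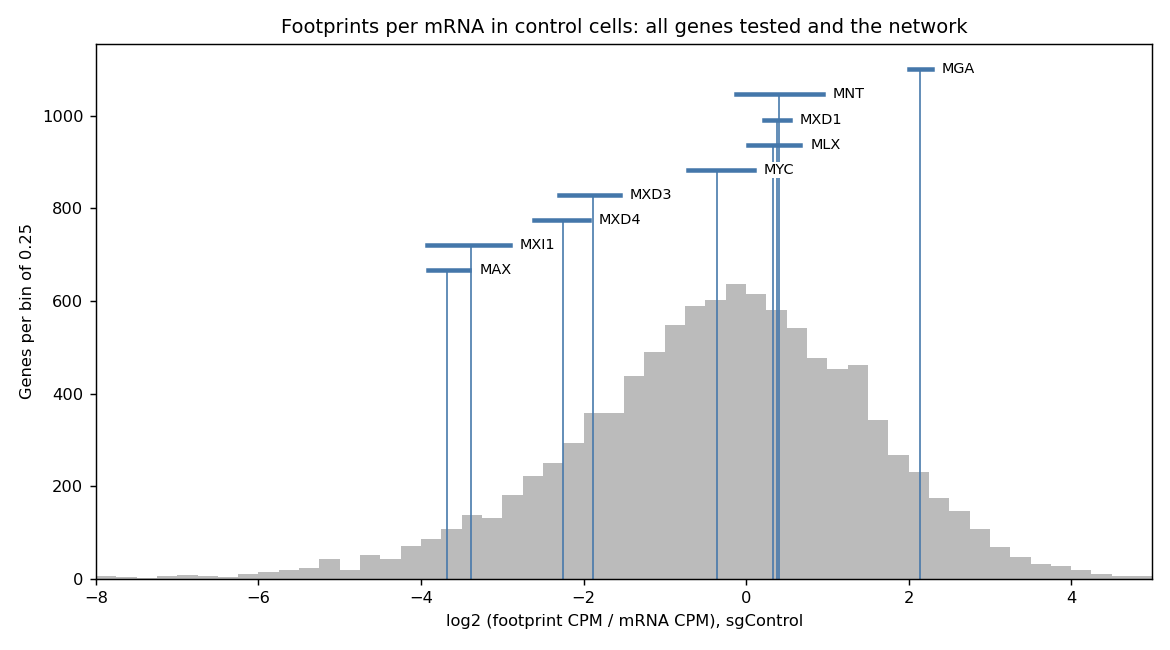
Distribution over 10446 genes of log2 footprint CPM per mRNA CPM in sgControl (grey, genes per bin of 0.25), with each member's value as a blue line and the range over single-library ratios as a thick bar. MAX and MXI1 lie in the lower tail, MYC near the middle and MGA in the upper tail.

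In sgMETTL13 cells MAX and MXI1 were again lowest and MGA highest, with MAX at 0.0944, MXI1 at 0.0789, MYC at 0.991 and MGA at 3.44. The change in footprints per mRNA, tested as an interaction over all 8 libraries, passed for 0 of 9 members and for 0 of 10446 genes, 0%, with 347 genes at an unadjusted p below 0.05 and none of the members among them. DESeq2 called 5 genes and limma voom 0. Over all genes edgeR called 500 (4.78%) without sgMETTL13 RNA replicate 1, with 0 members among them, and 1384 (13.2%) without sgMETTL13 RNA replicate 2, with MGA among them (-0.83, adjusted p = 0.0476). MYC had the largest positive estimate, 1.28-fold (interval 0.703 to 2.34), and MAX followed at 1.21-fold (0.628 to 2.33). The other 7 members had estimates from 0.793 in MGA to 0.895 in MXD4. The median over all genes was -0.11 on the log2 scale. The sign of the MYC estimate turned without sgControl RNA replicate 2 (-0.07), and that of MAX without sgMETTL13 RNA replicate 1 (-0.01).

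The summed footprints of the 6 MAX-binding repressors (MXD1, MXD3, MXD4, MXI1, MNT and MGA) were 208 and 256 CPM in control cells against 217 and 204 CPM with sgMETTL13. These groups overlapped, and sgControl replicate 2 was again the highest. In mRNA the sums were 180 and 222 CPM against 215 and 206 CPM. These sums are not per length, so only their course across libraries can be read.

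Each gene was centred within each assay to compare patterns over the 8 libraries. Nearest to MYC were ZMIZ1 (Pearson r = 0.974), TFAP2A (0.971), VCL (0.964), HIPK2 (0.96) and ARID1A (0.958), the top of 8164 genes with at least 5 CPM in each assay. Nearest to MAX were GGA3 (0.978), CNNM4 (0.977) and COG7 (0.97). Among the members, MNT and MLX were most alike (r = 0.94), followed by MNT and MXD4 (0.88), while MXD4 and MGA ran most opposite (-0.77), then MAX and MGA (-0.73). These values describe 8 points that share libraries and scaling.

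Of the neighbouring factors, MYCN was close to the counting floor with 1 to 7 counts in every library, and MYCL had 144 to 251 mRNA counts but 1 to 4 footprints. The MLX partner MLXIP read 42.9 and 42.6 footprint CPM in control cells against 56.2 and 48.4 CPM with sgMETTL13, a ratio of 1.22 that did not pass (edgeR adjusted p = 0.172). MLXIPL had 2 to 5 footprints. Of 9 listed neighbours 6 were tested in footprints, 0 rose and 3 fell (50% called, against 21% of all genes), the E-box factors USF2 (log2 fold change -0.77, SE 0.166), TFE3 (-0.78, SE 0.209) and MITF (-1.06, SE 0.351). USF2 and TFE3 lost their calls without sgControl replicate 2, TFE3 also without sgMETTL13 replicate 1, and MITF in every left-out fit but that without sgControl replicate 1. In mRNA and in footprints per mRNA, 0 genes passed in each of the 9 lists described here. The lists were chosen with earlier results of these data known. Their shares called are therefore descriptions and do not test whether a list differs from all genes.

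Of 23 genes that serve MYC as cofactors 1 rose and 3 fell in footprints (17.4% called, against 21% of all genes), with a median of -0.09. ZBTB17, which encodes MIZ1, the partner through which MYC represses genes, read 16.3 and 27.5 CPM in control cells against 11.4 and 7.57 CPM with sgMETTL13. Both sgMETTL13 libraries were below both controls, and 64.1% of all genes tested in footprints had groups that did not overlap. The log2 fold change was -1.18 with SE 0.234 (edgeR adjusted p = 0.000676). The elongation factor genes SUPT5H and PAF1 fell by 0.54 and 0.43, and ACTL6A rose by 0.42, calls that each ended without either replicate 2, and those of PAF1 and ACTL6A also without sgMETTL13 replicate 1.

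Of 24 genes of MYC protein turnover 2 rose and 5 fell (29.2% called, against 21% of all genes), with a median of 0.01. FBXW7, the ubiquitin ligase subunit that recognises phosphorylated MYC, read 21.2 and 25.5 footprint CPM in control cells against 11.4 and 10.8 CPM with sgMETTL13. Here the replicates lay close and the groups well apart (log2 fold change -1.07, SE 0.195, edgeR adjusted p = 0.000325). Groups did not overlap in 64.1% of all genes tested in footprints. FBXW7 mRNA read 13.7 and 11.8 CPM against 23.5 and 11.4 CPM, and its change in footprints per mRNA, -1.5, did not pass (adjusted p = 0.999). AXIN1 fell by 0.69 and the deubiquitinase USP36 by 0.55. AXIN1 lost its call without sgMETTL13 replicate 2 and USP36 without either replicate 2.

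Of 21 tested proteins that bind MYC mRNA or its gene's regulatory elements 1 rose and 1 fell (9.52% called, against 21% of all genes), with a median of 0.04. HNRNPK rose from 293 and 234 to 430 and 417 footprint CPM (log2 fold change 0.68, SE 0.128, edgeR adjusted p = 0.000402), and HNRNPD fell by 0.39, a call lost without either replicate 2. Of 22 SIN3 corepressor genes, which the MXD proteins and MNT recruit, 2 rose and 4 fell (27.3% called, against 21%), with a median of 0.08. The scaffolds SIN3A and SIN3B read -0.12 and -0.34 and the deacetylases HDAC1 and HDAC2 0.18 and 0.17, none passing. RBBP4 rose by 0.9, while SUDS3 fell by 0.88 and BRMS1 by 0.57. BRMS1 lost its call without sgMETTL13 replicate 2.

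In the list drawn up for the MGA complex 2 of 13 tested genes rose and 3 fell (38.5% called, against 21% of all genes), with a median of 0.17. PCGF6, the Polycomb RING finger protein that defines the complex with MGA, read 23.5 and 33.9 footprint CPM in control cells against 14.9 and 10.6 CPM with sgMETTL13. The groups did not overlap, as in 64.1% of all genes tested in footprints. The log2 fold change was -1.14 with SE 0.205 (edgeR adjusted p = 0.000261). L3MBTL2 fell by 0.47, and CSNK2A1 and CBX3 rose by 0.5 and 0.44, calls that all ended without sgControl replicate 2 and without sgMETTL13 replicate 2, and those of CSNK2A1 and CBX3 also without sgMETTL13 replicate 1. CSNK2A1 was also counted among the turnover genes, and whether it belongs to the MGA complex was not tested.

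Known MYC-activated genes moved in both directions. Of 60 tested 7 rose and 15 fell in footprints (36.7% called, against 21% of all genes), with a median of -0.07, and 0 of 60 passed in mRNA. The ribosome biogenesis genes BOP1 and RRS1 fell by 0.86 (SE 0.135) and 0.83 (SE 0.131). BOP1 read 327 and 430 CPM in control cells against 221 and 196 CPM with sgMETTL13. NPM1, a nucleolar chaperone, rose from 326 and 260 to 476 and 542 CPM (log2 fold change 0.8, SE 0.13). NME2 fell by 0.79, but it adjoins NME1 and shares a read-through transcript with it, so its counts are uncertain. BOP1, RRS1, NPM1 and NME2 passed in each fit with 1 footprint library left out, whereas without sgMETTL13 replicate 2 only 3 of these targets fell and 2 rose.

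Of 14 tested genes that MYC is known to repress 3 rose and 2 fell (35.7% called, against 21% of all genes), with a median of -0.01. The cyclin-dependent kinase inhibitor genes CDKN2B and CDKN1A fell by 1.44 (SE 0.218) and 1.29 (SE 0.176), and CDKN2B footprints read 17.7 and 17.3 CPM in control cells against 6.1 and 6.81 CPM with sgMETTL13. TXNIP and ITGB1 rose by 0.63 and 0.37. TXNIP, the glucose-induced thioredoxin inhibitor and classic MLX target, read 191 and 156 CPM in control cells against 258 and 277 CPM with sgMETTL13 (SE 0.131, edgeR adjusted p = 0.00115). It was the only 1 of 9 tested MLX targets that passed (11.1% called), and its paralogs ARRDC2, ARRDC3 and ARRDC4 read -0.72 (SE 0.469, adjusted p = 0.287), 0.81 (SE 0.33, adjusted p = 0.0795) and 0.2 (SE 0.241, adjusted p = 0.595). ITGB1 kept its call only without sgControl replicate 1, while CDKN1A, CDKN2B and TXNIP passed in all 4.

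**Figure D5:**
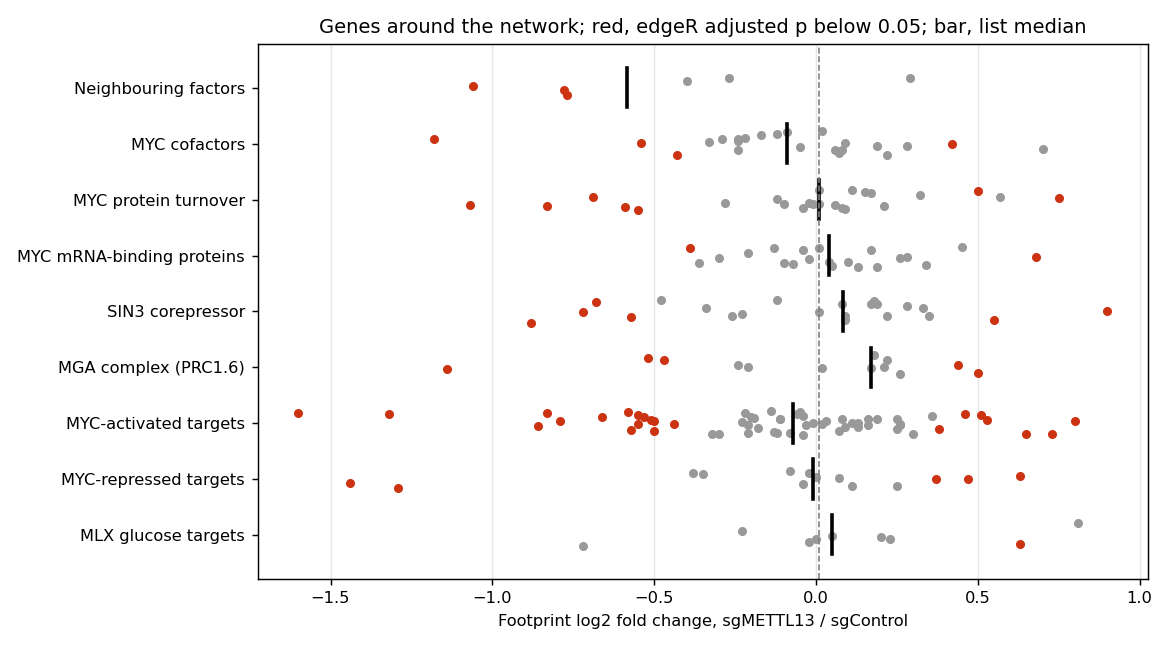
Footprint log2 fold change of every tested gene in the 9 lists around the network; red points passed the edgeR test, the black bar is the list median and the dashed line the median of all genes tested (0.01). Most lists hold genes on both sides, with medians from -0.58 in the neighbouring factors to 0.17 in the MGA complex.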

How the data were processed

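Poly(A) RNA-seq and ribosome profiling were done on 8 libraries of T3M4 cells. The authors deposited 1 table of raw counts per gene symbol. HISAT2 2.0.4, Bowtie 1.2.2, cutadapt 1.18, featureCounts, UMI-tools and the build hg38 are named in the submitters' processing notes; their roles, the annotation, the strand setting and the handling of reads with several matches are not given in the sources used here. Groups followed the titles. Counts were fitted on the whole table with edgeR 4.0.16 (R 4.3.3): quasi-likelihood F test, default expression filter, then TMM factors within each assay, with p-values adjusted by Benjamini-Hochberg over all genes tested and a threshold of 0.05. Each assay was fitted on its 4 libraries, and footprints per mRNA as the interaction over all 8. Each SE was the absolute log2 fold change divided by the root of its F statistic. Factors were first computed before the filter, and the order was changed to the tool's usual one after those results, in which MNT missed the threshold, had been seen. The members and gene lists were chosen with earlier results of these data known. Named genes were the members, METTL13, up to 4 genes per list by smallest footprint adjusted p, and those nearest MYC and MAX over 8 libraries. SIN3A, SIN3B, HDAC1, HDAC2, MYCN, MYCL, MLXIP, MLXIPL, ARRDC2 and ARRDC4 fall outside that rule and were named after their values were seen. Some genes that the rule names are not reported here. The fits were tested on simulated counts with the same spread in both assays. That spread was near the common coefficient of variation fitted in footprints (0.0992). It was below those fitted in mRNA (0.337) and for footprints per mRNA (0.261). The planted changes were larger than any member's estimate and lay in genes with many counts. Detection of differences as small as those of the members was therefore not tested. Alternatives were DESeq2 1.42.0, limma voom 3.58.1, other scaling, no filter, a replicate block, 1 model of all libraries, and each library left out. A count of 0 allows up to 3 counts, or 0.144 CPM for RNA and 0.495 CPM for footprints at the lowest depth.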

Additional observations from a re-analysis of the deposited data

How the results depend on the processing

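In footprints, 2 members passed, against 1 with DESeq2, limma voom, total count scaling or the replicate block, 0 in the model of all 8 libraries, and 0 to 2 with 1 library left out. With TMM factors over unfiltered genes, the order used first and replaced after its results were seen, 1 passed. In each of these but the model of all 8 libraries and the left-out fits the call lost was MNT. In mRNA and in footprints per mRNA, 0 members passed and 0 to 1 with 1 library left out, the 1 being MGA without sgMETTL13 RNA replicate 2 (0.93 and -0.83). The cause was not tested. A left-out library leaves 1 in its group, which is assumed to vary like the other group.

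Replicate numbers share no stated source and were not taken as pairs. Deviations of same-numbered libraries correlated at 0.377 in RNA and -0.172 in footprints, and whether the libraries are pairs was not tested. In mRNA the replicate block called 0 genes, as the main fit did. Each member's SE in mRNA was lower with the block, as in MLX (0.286 against 0.368) and MYC (0.261 against 0.363). The replicate block called 1729 genes in footprints against 2245. The crossed pairing, chosen after seeing the data, called 3220, with 2 members.

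The mRNA log2 fold change of MXI1, 0.01, was 0 with limma voom, -0.01 with total count scaling and -0.02 with the replicate block. With 1 library left out, signs turned within these ranges. In mRNA, MYC ran from -0.48 to 0.24, MAX from -0.38 to 0.09, MXD3 from -0.32 to 0.42, MXD4 from -0.49 to 0.26, MXI1 from -0.29 to 0.31, MNT from -0.44 to 0.24, MGA from -0.3 to 0.93 and MLX from -0.53 to 0.03. In footprints, MAX ran from -0.1 to 0.27, MXD1 from -0.03 to 0.14, MXD3 from -0.56 to 0.12, MXI1 from -0.58 to 0.12 and MGA from -0.03 to 0.15. In footprints per mRNA, MYC ran from -0.07 to 0.67, MAX from -0.01 to 0.52, MXD3 from -0.65 to 0.14, MXD4 from -0.54 to 0.26, MXI1 from -0.57 to 0.13, MNT from -0.69 to 0.04, MGA from -0.83 to 0.36 and MLX from -0.51 to 0.1. All footprint calls numbered 1479 with DESeq2, 824 without sgControl replicate 2, 701 without sgMETTL13 replicate 2 and 0 in the model of all 8 libraries. List counts moved too: with 1 library left out, MYC-activated targets that fell numbered 3 to 15 and that rose 2 to 11, turnover genes that fell 3 to 5, cofactors that fell 1 to 5, SIN3 genes that fell 2 to 5 and neighbours that fell 0 to 4, and the model of all 8 libraries called 0 in each list. Of 30 named list genes 29 passed, and 15 passed in each left-out fit.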
